A study of Mus musculus with 6 samples.

Results

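Solute carriers (genes named Slc or Slco) and ATP-binding cassette transporters (Abc) move amino acids, sugars, ions, metals, nucleotides and lipids across the membranes of a cell. The genes described here are those of an ac4C peak list from 32D cells whose symbol begins with Slc or Slco and a number, or with Abca to Abcg and a number. Slc16a1, Slc16a3, Slc2a1 and Abce1 were left out by name. This gave 23 of the 1485 genes in the list, with 28 of its 1876 peak summits. The rule reads gene symbols and no measured value, but it was set with earlier results of these data known.

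N4-acetylcytidine (ac4C) is a form of cytidine in RNA that carries an acetyl group and is written by the acetyltransferase Nat10. In acRIP-seq an antibody against ac4C pulls down RNA fragments, which are then sequenced, and the place where most fragments pile up is called a summit. The 32D line is a mouse bone marrow line of myeloid type that grows in interleukin 3 (IL-3), here at 10 ng/mL, and the labels call its cells lymphoblastocytes. All 6 libraries came from wild-type cells of this 1 line and from poly(A) RNA. The ac4C antibody, control IgG and input RNA without antibody had 2 libraries each, and nothing in the labels says whether they came from separate cultures. Of 15 myeloid markers 5 were in the list, led by Fcgr2b, Spi1 and Fcer1g. Hba-a1 was listed of 6 erythroid markers, and none of 6 B cell, 6 T cell and 6 non-hematopoietic markers was. With 6.71% of all protein-coding genes listed, an interval for 0 of 6 runs up to 45.9%, so these counts show no contrast between cell types.

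By the names of its peaks the list was called once, on both ac4C libraries merged. No value belongs to either library alone, no replicate error can be given, and ac4C was not compared with IgG or input. Each summit has a fold enrichment, a ratio given by the authors' peak caller. Each of the 1876 folds was a whole multiple of 0.475 to within 0.01 of a step, which is what the fragment pileup plus 1 over a constant background plus 1 gives. The background was then 1.11 fragments for every summit. The fold therefore holds no term for input, IgG or the abundance of the mRNA, so strong pull-down and many copies of a transcript cannot be told apart. The pileup at each summit was recovered from its fold, and its exact 95% Poisson interval is given below on the fold scale. These intervals cover counting error only, and reads without molecular identifiers are not independent molecules. The depth of each library is unknown.

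Carriers fall into families by sequence, and families largely share a kind of cargo. Amino acid carriers at the cell surface feed protein synthesis in dividing cells, and some work as pairs of a heavy and a light chain. Carriers of the Slc25 family sit in mitochondrial membranes, Slc30 and Slc39 proteins move zinc out of and into the cytosol, Slc35 proteins load the Golgi and the endoplasmic reticulum with nucleotide sugars, and ABC proteins use ATP to pump lipids, peptides and drugs. No transcript sequence was used, so no sequence is shown at the summits, and positions are in nucleotides (nt) from the start of the listed transcript.

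Of 435 protein-coding genes with such symbols in the gene table, 23 had a listed summit, or 5.29% (exact Clopper-Pearson 95% interval 3.38% to 7.83%). Among all protein-coding genes there, 6.71% had one, a share inside that interval. The other 412 are called unlisted. Apart from the named exceptions, unlisted genes named below came from a list of 17 family genes, of which 3 were listed. A gene can be unlisted because it was not expressed, carried no ac4C or was removed by the filter behind the list, and neither that filter nor expression is known here. Nor is a listed summit alone proof of ac4C.

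Among the 23 genes the highest folds belonged to carriers of amino acids. Slc3a2, Slc7a5 and Slc38a2 were the 3 highest, and the mitochondrial carrier gene Slc25a30 came next. The intervals of Slc38a2 (35.1, 27.6 to 44.0) and Slc25a30 (33.7, 26.4 to 42.5) overlapped, so their order was not resolved. The lactate carrier gene Slc16a1, left out by name, had a highest fold of 41.8, equal to Slc7a5 and above Slc38a2. With Slc16a1 counted, the 3 highest genes would not all belong to amino acid carriers. Of the 23 genes, Slc3a2, Slc7a5, Slc38a2 and Slc25a30 had folds of 20 or more. These 4 were a share of 17.4%, against 26.7% of all listed genes. The same 4 were the members with several summits, again 17.4%, against 20.1% of all listed genes. Neither share exceeded that of the list as a whole.

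**Figure D1:**
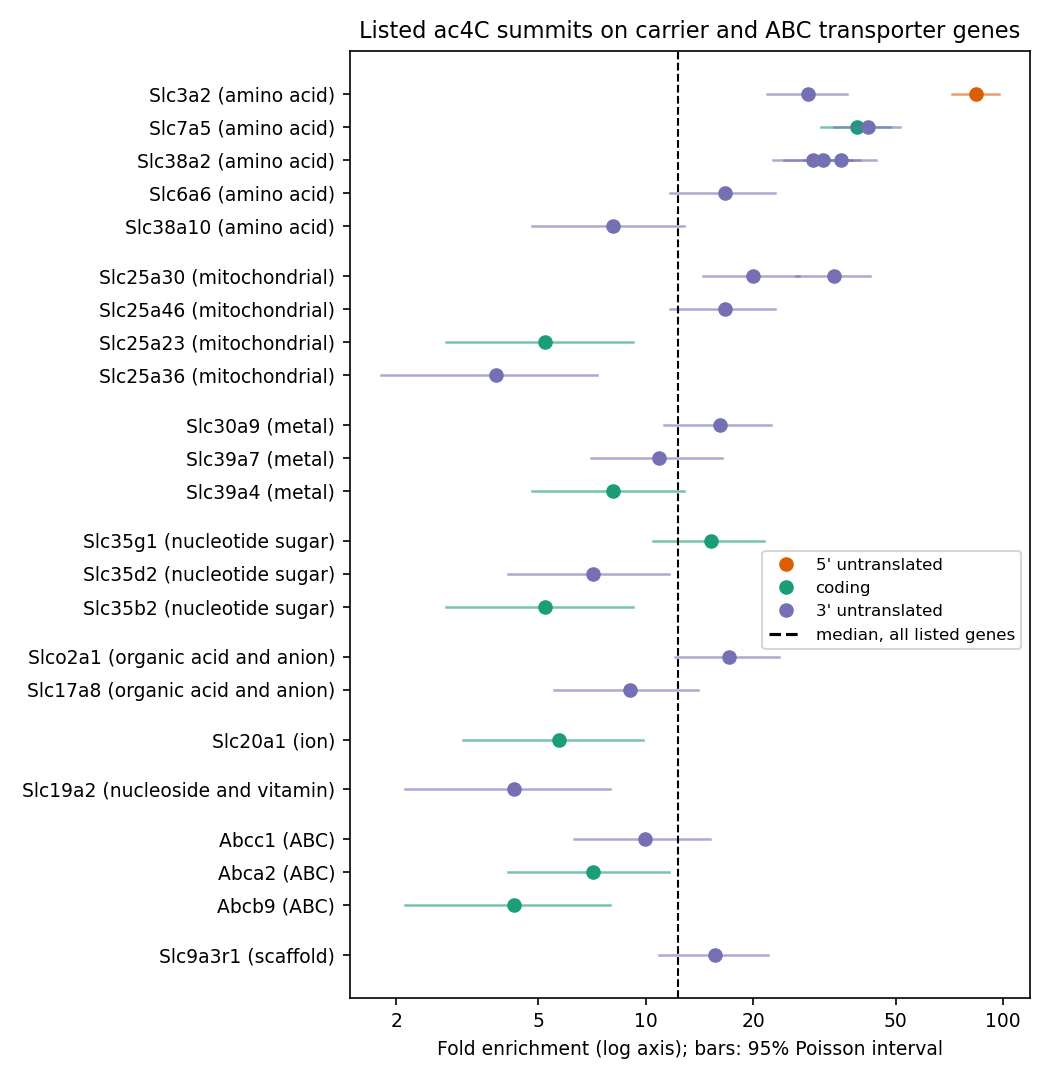
Fold enrichment at each of the 28 summits (horizontal log axis) by gene and kind of cargo, coloured by transcript region, with the exact 95% Poisson interval of the pileup as a bar. The dashed line is the median highest fold of all 1485 listed genes, 12.3, and only Slc3a2, Slc7a5, Slc38a2 and Slc25a30 have a summit above a fold of 20.

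Slc3a2 (ENSMUSG00000010095) encodes the heavy chain known as 4F2hc or CD98, which carries its light chains to the cell surface. It had a fold of 84.0 (72.1 to 97.3; pileup of 176 fragments) at nt 62 of ENSMUST00000010239, in the 5' untranslated region. A second summit had a fold of 28.5 (21.8 to 36.6; 59 fragments) at nt 2320 of another transcript, ENSMUST00000170157, in the 3' untranslated region. The 5' untranslated summit was 2.95 times as high as the 3' untranslated one, and their intervals for counting error did not overlap. As the 2 summits lie on different transcripts, their ratio cannot be told apart from a difference in transcript copies. The summit at nt 62 was the only 5' untranslated summit on these genes. It ranked 4 of the 133 in the list, where the median fold in that region was 13.8. By its highest fold Slc3a2 ranked 15 of 1485 genes. Summits in both untranslated regions with none in coding sequence were listed for 13 of the 1485 genes. Slc3a2 was also the only one of the 23 genes with summits on more than 1 transcript, as 195 genes of the whole list had.

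Slc7a5 (ENSMUSG00000040010) encodes LAT1, a light chain that pairs with the Slc3a2 protein and imports large neutral amino acids such as leucine. Its coding summit at nt 1141 had a fold of 38.9 (31.0 to 48.3; 81 fragments) and its 3' untranslated summit at nt 2743 a fold of 41.8 (33.6 to 51.4; 87 fragments). The folds differed 1.07 times, less than their counting error. Both summits lay 1602 nt apart on ENSMUST00000045557 and belonged to 1 numbered peak. The letters of that peak imply at least 7 summits, of which 2 were listed. The coding summit ranked 66 of 900 in its region and the other 50 of 843. Of the 15 Slc7 genes in the table Slc7a5 alone was listed, or 6.67%, near the 6.71% over all protein-coding genes. The other light chain genes, Slc7a11 of the cystine carrier among them, thus had no listed summit.

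Slc38a2 (ENSMUSG00000022462) encodes SNAT2, a sodium-coupled importer of small neutral amino acids such as glutamine and alanine. Its 3 summits all lay in the 3' untranslated region of ENSMUST00000023099. The fold was 35.1 (27.6 to 44.0) at nt 3099, 31.3 (24.3 to 39.8) at nt 3619 and 29.4 (22.6 to 37.7) at nt 4019, and the intervals of neighbouring summits overlapped. They belonged to 1 peak, whose letters imply at least 5 summits, and were 520 and 400 nt apart. In the whole list 15 genes had 3 or more summits in the 3' untranslated region.

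**Figure D2:**
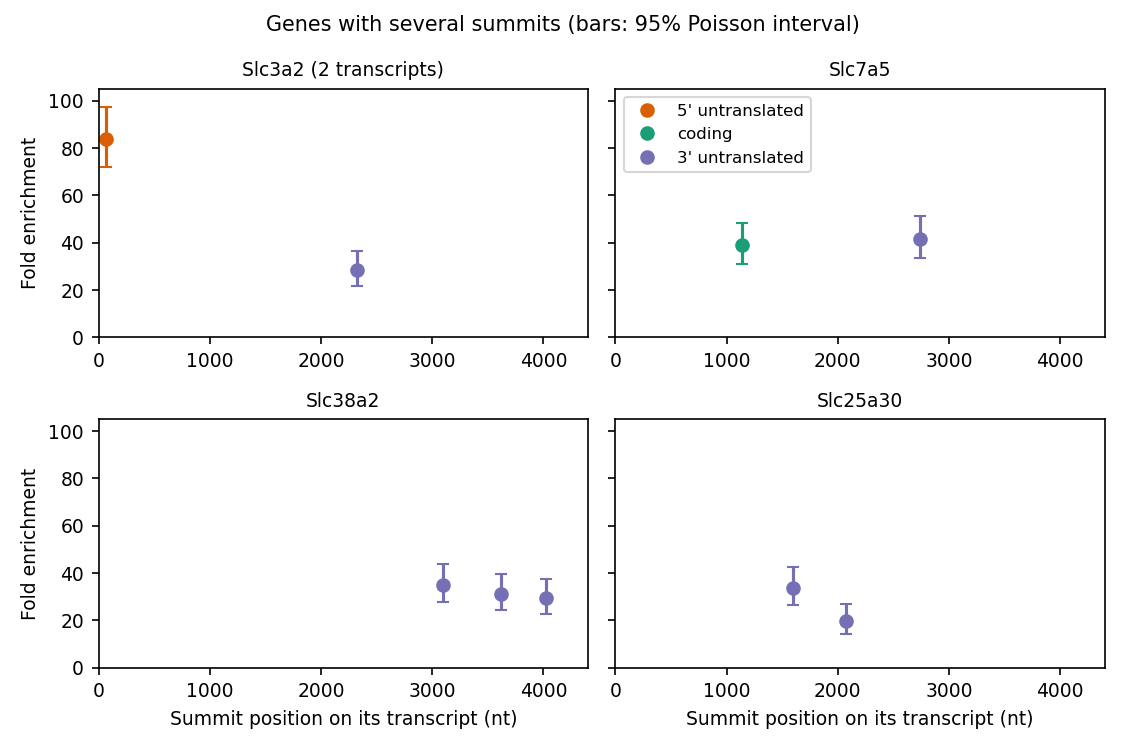
Fold enrichment (vertical axis) against summit position on its transcript in nt (horizontal axis) for the 4 genes with several summits, coloured by region, with the 95% Poisson interval as a bar. The 5' untranslated summit of Slc3a2 stands above its 3' untranslated summit, while the summits within Slc7a5 and within Slc38a2 overlap in their intervals. The summits of Slc3a2 lie on 2 transcripts with separate numbering.

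A pair of further genes completed the amino acid class. Slc6a6, which encodes the taurine carrier, had a 3' untranslated summit of fold 16.6 (11.7 to 23.0) at nt 5064. Slc38a10 had one of fold 8.07 (4.82 to 12.8) at nt 3771, below the median of the list. The class thus had 5 of 66 genes listed, or 7.58%. Its median highest fold was 35.1, with a range from 8.07 to 84.0, against 8.54 for the other 18 genes and 12.3 for all listed genes. With 5 genes that spread so widely, the median is a description of these genes. Slc1a5, a glutamine importer gene, and Slc38a1, the gene of a second glutamine importer, were unlisted, as were all 7 Slc1 genes and all 4 Slc36 genes.

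Mitochondrial carriers of the Slc25 family had 4 of 47 genes listed, or 8.51%, and spread from among the highest to the lowest of the 23 genes. Slc25a30 had 3' untranslated summits of fold 33.7 (26.4 to 42.5) at nt 1592 and 19.9 (14.4 to 26.9) at nt 2072, from separate peaks 480 nt apart. The first was 1.69 times the second, and their intervals overlapped slightly. Slc25a46, whose protein sits in the outer mitochondrial membrane and acts in mitochondrial shape, had a fold of 16.6 (11.7 to 23.0) at nt 1371 of its 3' untranslated region. The other pair were low. Slc25a23, a calcium-regulated carrier of ATP-magnesium and phosphate, had a coding summit of 5.22 (2.75 to 9.20) at nt 794. Slc25a36, a carrier of pyrimidine nucleotides, had the lowest fold of all 23 genes, 3.80 (1.81 to 7.32; 7 fragments), at nt 3212 of its 3' untranslated region. The class median was 10.9. The mitochondrial iron importers Slc25a37 and Slc25a28 had no listed summit.

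Metal carriers had 3 of 33 genes listed, or 9.09%, all of them from the 2 zinc families. Slc30a9, a zinc exporter gene, had a 3' untranslated summit of fold 16.1 (11.3 to 22.5) at nt 2730. Slc39a7, which encodes ZIP7, a carrier that releases zinc from the endoplasmic reticulum into the cytosol, had one of 10.9 (7.02 to 16.3) at nt 1944. Slc39a4, which encodes ZIP4, best known for zinc uptake in the gut, had a coding summit of 8.07 (4.82 to 12.8) at nt 2008. The intervals of neighbours in this order overlapped. The iron carrier genes Slc11a2 and Slc40a1 were unlisted.

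Nucleotide sugar carriers and their relatives had 3 of 32 genes listed, or 9.38%. Slc35g1 had a coding summit of fold 15.2 (10.5 to 21.4) at nt 832, from a peak whose letters imply at least 2 summits. Slc35d2, of a family branch that carries UDP-sugars, had a 3' untranslated summit of 7.12 (4.11 to 11.6) at nt 1883. Slc35b2, which brings the sulfate donor PAPS into the Golgi, had a coding summit of 5.22 (2.75 to 9.20) at nt 1424. Only Slc35g1 lay above the median of the list.

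ABC transporters of subfamilies A to D and G had 3 of 46 genes listed, or 6.52%, and all 3 were below the median of the list. Abcc1, which encodes the drug and glutathione-conjugate exporter MRP1, had a 3' untranslated summit of fold 9.97 (6.27 to 15.1) at nt 5798. Abca2, an endosomal and lysosomal lipid transporter gene, had a coding summit of 7.12 (4.11 to 11.6) at nt 6045. Abcb9, a lysosomal peptide transporter gene, had one of 4.27 (2.11 to 7.96; 8 fragments) at nt 1769. The multidrug exporter genes Abcb1a, Abcb1b and Abcg2, the last a known marker of stem cells, were unlisted. So was Abcb10, a mitochondrial transporter gene tied to heme synthesis. The 3 Abcf genes, whose proteins lack a membrane part and act in translation, were unlisted too.

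The remaining cargo classes had few listed genes, and their exact 95% intervals include the 6.71% over all protein-coding genes. The intervals of the classes above include it too. Those of amino acid, mitochondrial, metal and nucleotide sugar carriers began at 2.51%, 2.37%, 1.92% and 1.98%, below that share. That of ABC transporters ran from 1.37% to 17.9%. No class was thus resolved from the share over all protein-coding genes. Organic acid and anion carriers had 2 of 78 genes listed, or 2.56% (0.312% to 8.96%). Slco2a1, the prostaglandin carrier gene, had a 3' untranslated summit of 17.1 (12.0 to 23.6) at nt 5060, and Slc17a8, which encodes a vesicular glutamate carrier known from neurons, had one of 9.02 (5.54 to 14.0) at nt 2798. Ion carriers had 1 of 56, or 1.79% (0.0452% to 9.55%), the phosphate importer gene Slc20a1, with a coding summit of 5.70 (3.08 to 9.82) at nt 2418. Nucleoside, vitamin and choline carriers had 1 of 25, or 4% (0.101% to 20.4%), the thiamine carrier gene Slc19a2, with a 3' untranslated summit of 4.27 (2.11 to 7.96) at nt 3095. The folate carrier gene Slc19a1 and the nucleoside carrier gene Slc29a1 were unlisted. So were all 29 genes of the families classed as sugar carriers (interval up to 11.9%) and the 16 genes of other Slc families. Slc9a3r1, a member by its symbol, encodes a scaffold that binds a sodium-proton exchanger and is no carrier. It had a 3' untranslated summit of 15.7 (10.9 to 21.9) at nt 1493.

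**Figure D3:**
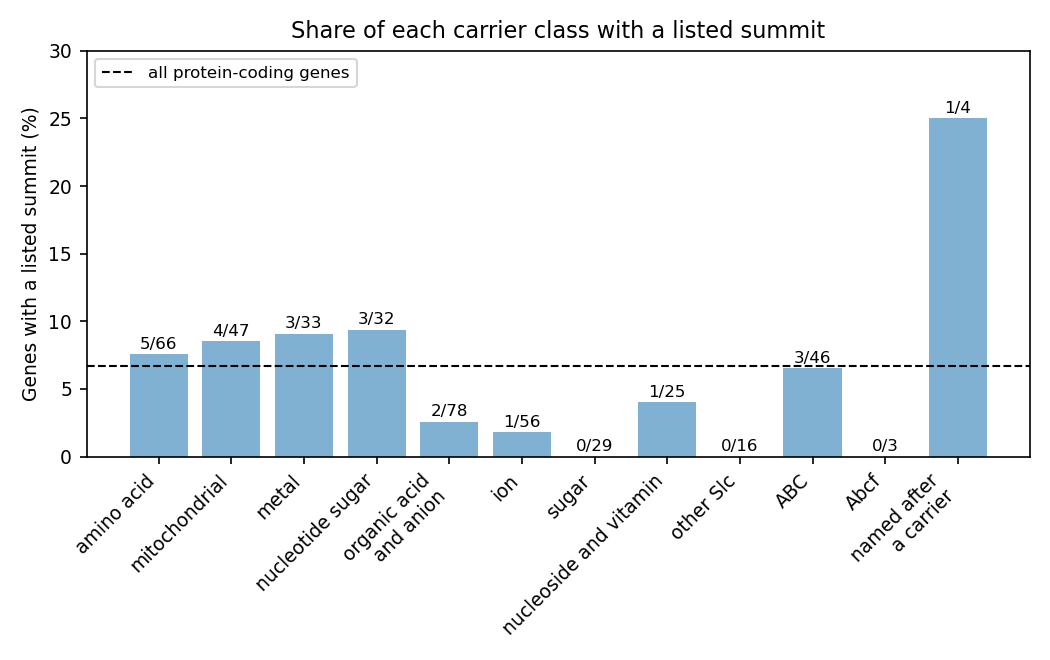
Share of the genes of each class in the gene table that had a listed summit (bars, %), with listed and total genes above each bar, and the share over all protein-coding genes, 6.71%, as a dashed line. Amino acid, mitochondrial, metal and nucleotide sugar classes lie between 7.58% and 9.38%, organic acid and ion carriers at 2.56% and 1.79%. The exact 95% interval of each of these shares includes 6.71%. The highest bar is 1 of 4 genes named after a carrier.

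Over all 23 genes the median highest fold was 9.97 (quartiles 6.41 and 16.6) against 12.3 (quartiles 7.12 and 21.4) for the 1485 listed genes, and the order-statistic 95% interval of the members' median, 7.12 to 16.6, included 12.3. Which median was higher depended on the region counted. With 3' untranslated summits alone the median was 15.9, above the 12.3 of all genes with such a summit, and with coding summits alone 6.41, below 10.9. Neither difference was resolved: by summits, the intervals of the members' medians, 9.02 to 29.4 and 4.27 to 38.9, included the list medians. At or above the median fold of all summits, 11.4, were 10 of the 23 genes, or 43.5%, against 54.6% of all listed genes. By their highest fold there were 4 genes at 33.7 or more, 6 between 15.2 and 17.1, and 13 at 10.9 or less. Among the 22 pairs of neighbours in this order 2 had intervals that did not overlap. These lay between Slc3a2 and Slc7a5, at a ratio of 2.01, and between Slc25a30 and Slco2a1, at 1.97. The order of the other neighbours was within counting error. The highest q-value of the 28 summits in the authors' deposited table was 0.0003, that of Slc25a36.

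**Figure D4:**
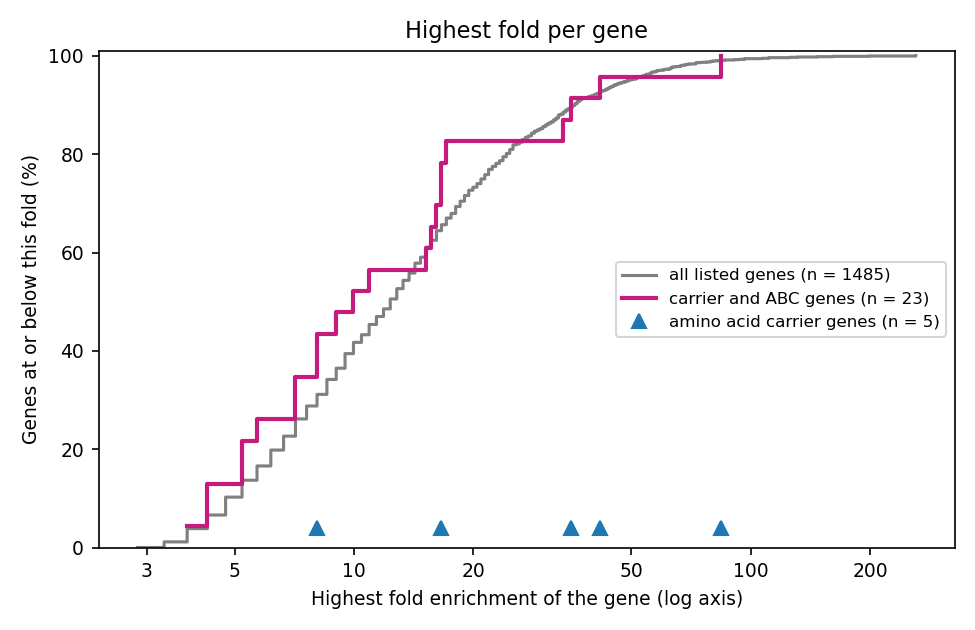
Cumulative share of genes (vertical axis, %) by the highest fold enrichment of the gene (horizontal log axis) for the 23 carrier and ABC genes and all 1485 listed genes, with the 5 amino acid carrier genes as triangles. The median is 9.97 for the first and 12.3 for the second, and 3 of the 4 carrier genes at 33.7 or more are triangles.

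The summits of these genes lay mostly in 3' untranslated regions. That region held 19 of 28 summits, or 67.9% (47.6% to 84.1%), against 44.9% of all 1876. Coding sequence held 8, or 28.6% (13.2% to 48.7%), against 48.0%, and the 5' untranslated region 1, or 3.57%, against 7.09%. Counted by gene, 16 of 23, or 69.6% (47.1% to 86.8%), had a 3' untranslated summit, against 49.5% of all listed genes, a share inside the interval, and 8 of 23, or 34.8%, a coding summit, against 51.3%. Summits of 1 gene are not independent, and the interval for the 3' untranslated share does not clear the whole list in every count. With the strongest summit of each gene the share was 65.2% (42.7% to 83.6%) against 46.6%, and without Slc38a2 it was 64.0% (42.5% to 82.0%), intervals that included the share over the whole list. Among summits with a fold at or above 11.4 it was 12 of 15, or 80% (51.9% to 95.7%), against 47.5%. The coding share there was 2 of 15, or 13.3% (1.66% to 40.5%), against 44.2%. These 2 intervals did not include the share over the whole list. They treat the 15 summits as independent, though these came from 10 genes and 3 of them from Slc38a2, so they are too narrow. The lengths of the regions in these transcripts were not measured. Slc3a2 had summits in the 2 untranslated regions alone, as had 13 of the 1485 listed genes. Slc7a5 had coding and 3' untranslated summits alone, as had 94 of the 1485. Of the 23 genes, 14 had 3' untranslated summits alone, against 620 of the 1485. Coding summits alone were listed for 7 of the 23, against 646 of the 1485.

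**Figure D5:**
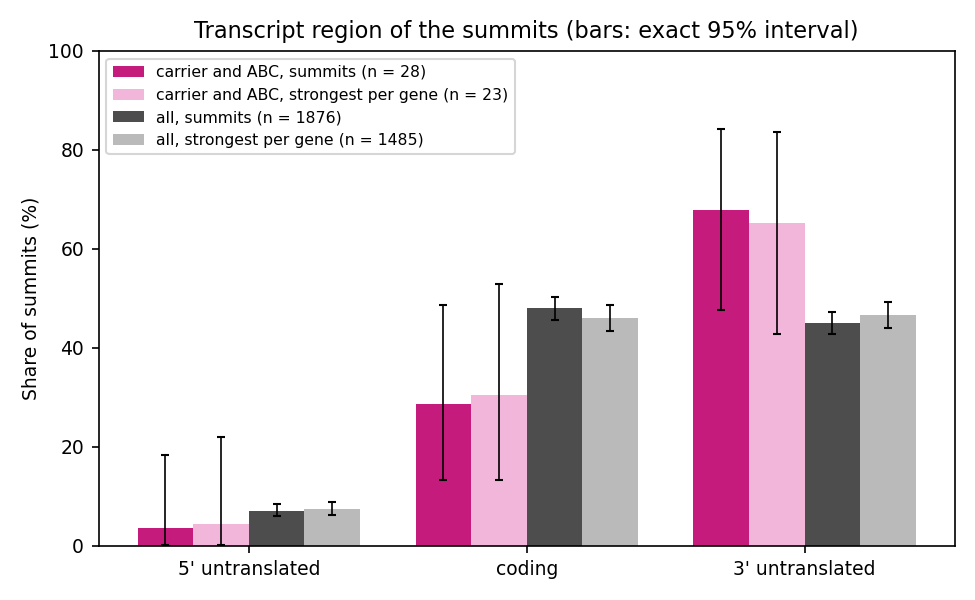
Share of summits (vertical axis, %) in each transcript region for the carrier and ABC genes and for the whole list, counted over all summits and over the strongest summit of each gene, with exact Clopper-Pearson 95% intervals as bars. The 3' untranslated share is 67.9% and 65.2% on the carrier and ABC genes and 44.9% and 46.6% over the list.

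Median folds by region went in the same order as the counts, apart from the lone 5' untranslated summit. The 19 summits in 3' untranslated regions had a median fold of 16.6 (order-statistic interval 9.02 to 29.4), against 12.3 for all 843 summits there. The 8 coding summits had a median of 6.41 (4.27 to 38.9), against 10.4 for all 900. Of these 8, 6 had a fold no higher than that of Slc39a4, 8.07, which ranked 577 of all 900 coding summits. Slc7a5 and Slc35g1 were above. Both intervals were wide and included the medians of the whole list. All 8 coding summits lay beyond nt 730.5, the median position of coding summits in the list. Their positions ran from nt 794 to nt 6045 with a median of 1596.5. In the 3' untranslated region 13 of 19 summits lay beyond the median position of all such summits, nt 2236, and their own median was nt 2798. Positions count from the transcript start, so they also grow with the length of what lies before the summit.

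The named exceptions differed among themselves. Slc16a1, which encodes the lactate carrier MCT1, had a coding summit of fold 22.3 (16.5 to 29.6) at nt 1608 and a 3' untranslated one of 41.8 (33.6 to 51.4) at nt 2800, the same fold as the highest of Slc7a5. Slc16a3, Slc2a1 and Abce1 were unlisted.

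Genes that work beside these carriers were taken as 3 lists. Of 34 amino acid sensing and supply genes 7 were listed, or 20.6% (exact 95% interval 8.70% to 37.9%), with a median highest fold of 23.3. The highest were Lamtor1, which anchors the amino acid sensing complex at the lysosome, at 47.5, the aspartate aminotransferase gene Got2 at 33.7, and Castor2 and the stress factor gene Ddit3, both at 23.3. Of 26 iron and heme handling genes 4 were listed, or 15.4% (4.36% to 34.9%). These were the ferritin heavy chain gene Fth1 at 111.1, in a 5' untranslated region, Glrx5 and Iscu of iron-sulfur cluster assembly at 41.8 and 25.2, and Hmox2 at 11.9. Of 40 carriers and partners with other symbols 4 were listed, or 10.0% (2.79% to 23.7%). Tap2, of the peptide pump that loads antigen presentation, had a fold of 29.9, Sfxn1, a mitochondrial serine carrier gene, 20.4, Bsg, a chaperone of lactate carriers, 18.0, and the calcium pump gene Atp2a3 7.12. The background share is 6.71% for each of these lists too, and it includes genes that these cells may not express. It lies inside the intervals of the iron and other-symbol lists and below that of the amino acid list. All 3 lists were chosen with earlier results of these data known.

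Most of these genes, 18 of 23, overlapped no other gene in the RefSeq table. The same count was not made over the whole list, so whether this share is usual is not known. The other 5 were Slco2a1, Slc6a6, Abcc1, Slc38a10 and Abca2, which overlapped a small or noncoding RNA gene or a pseudogene and no protein-coding gene. Whether the authors assigned reads by strand is not stated in the labels or the file, so reads of such partners cannot be told apart from those of the carrier gene.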

How the data were processed

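The submitters' processing notes name MACS2, Bowtie2, cutadapt and the GRCm39 mouse build, without versions or settings, and no source names the control library of the peak call. The authors deposited 1 list of summits that gives, per the file headers, a fold enrichment (ratio), a −log10 p-value, a −log10 q-value and the position in nt on an Ensembl transcript. The highest peak number in the list was 33651, and 1824 peak numbers were listed. If peaks were numbered without gaps, that is at most 5.42% of them.

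Genes were matched by symbol to a RefSeq table (assembly GRCm38.p6), which served for names, biotypes and overlaps; all 23 members matched. The pileup was recovered from the fold, and the Poisson tail above it gave the deposited −log10 p-values to within 0.000487%. This recovery and the intervals were tested on simulated data that followed the assumed formula and independent draws. The peak threshold and the filter behind the list were not simulated, so that test does not cover them. Python 3.11.15, scipy 1.17.1 and pandas 2.3.3 were used.

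No test was made: the list is pooled, so the planned fits against input and IgG could not be run. Full values went to the highest and lowest genes, each class's extremes and genes with several summits, and every listed member was named. Members, classes and lists were chosen with earlier results of these data known, and Slc9a3r1 was set apart after its values were seen. Alternatives were a stricter fold, other ways to count summits and other memberships.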

Additional observations from a re-analysis of the deposited data

How the results depend on the processing

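No paired analysis was possible because the list holds no value per library, so no replicate could be left out or used as a block either. With only summits at or above the median fold, 11.4, the number of listed transporter genes went from 23 to 10 and their median highest fold to 16.9, against 19.9 for all genes so selected; the listed shares of ABC, ion, and nucleoside and vitamin carriers went to 0%, all by construction of a higher minimum. With coding summits alone the median was 6.41, against 10.9 for all genes with such a summit. With 3' untranslated summits alone it was 15.9 against 12.3, which turns the order. By summits, the intervals of the members' medians included the list medians in both regions, and the cause was not tested. The other 45 of 51 alternatives stayed within 1.5 times the count or within the 95% interval of the value, but these intervals are wide. Some of the 45 could not move. No Abcf gene was listed, so leaving those genes out changed nothing. Each listed ABC, metal and nucleotide sugar gene had 1 summit, so the mean over summits equalled the highest fold. At the stricter fold the listed share went from 9.09% to 3.03% for metal and from 9.38% to 3.13% for nucleotide sugar carriers, and the median from 10.9 to 25.2 for mitochondrial and from 7.12 to 15.2 for nucleotide sugar carriers. The coding share of summits went from 28.6% to 13.3%, and the 3' untranslated share from 67.9% to 80%. Leaving out genes named after a carrier, or Slc38a2 from the region shares, was chosen after seeing the data. Counting error limits the low end: the pileup at the members' summits ran from 7 to 176 fragments with a median of 31.5.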
